A study of Homo sapiens with 8 samples.

Results

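AMOTL2 is a gene on the minus strand of human chromosome 3, and the data described here are the called binding regions of 2 transcription factors around it. All regions that touched the 220 kb window chr3:133980000-134200000 (hg19) were taken, which gave 105 of the 972037 regions in 3 lists. The window holds AMOTL2 (134074192 to 134094259) and was selected on row order, because several TEAD4 regions in it stand in the first 5000 rows of both TEAD4 lists. Row numbers and TEAD4 overlap between treatments therefore chose the locus and are given as a description, while SMAD2 had no part in the choice.

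AMOTL2 belongs to the motin family of scaffold proteins, found at cell junctions and on actin filaments. Motins bind the coactivators YAP and TAZ, hold them outside the nucleus and promote their phosphorylation by LATS kinases. YAP and TAZ act on DNA through TEAD factors, of which TEAD4 is 1, and AMOTL2 is a known target of YAP and TEAD, so that the gene is part of a negative feedback in the Hippo pathway. SMAD2 is a signal transducer of activin, Nodal and TGF-β.

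The regions came from chromatin immunoprecipitation and sequencing (ChIP-seq) in WA09, an established line of human embryonic stem cells, kept on Matrigel in medium conditioned by mouse embryonic fibroblasts. The 3 groups used were TEAD4 in cells given 10 µM SB431542 (an inhibitor of the receptor kinases through which activin, Nodal and TGF-β signal) for 4 h, TEAD4 in cells given the solvent DMSO for 4 h, and SMAD2 in the same DMSO condition. Each group had 1 library, so no value below has a replicate error. The other 5 labelled groups, which include input DNA, IgG and SMAD2 under SB431542, were not analysed here.

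Each list gives a position per called region and no score or count. Depth is unknown, a region missing from a list is not a measured loss of binding, and no p-value is given. All 28 TEAD4 starts of DMSO cells and all 31 SMAD2 starts in the window lie on a 50 bp grid, as do 100% of the starts in both whole lists, against 0 of 46 in the window and 1.97% in the whole list for TEAD4 in SB431542 cells. The treatment and the way the list was made cannot be told apart. Row number is read as rank, earliest row strongest, which no header or label states.

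The row order itself is coarse. In all 3 lists long stretches of rows run in falling order of chromosome name and position, the pattern that tied ranks leave when ties are sorted by place. Runs of at least 10 rows held 94.6% of the regions of the SB431542 TEAD4 list, 97.6% of the DMSO TEAD4 list and 88.9% of the SMAD2 list. In the window, 38 of 46, 23 of 28 and 25 of 31 regions of these lists stood in such a run. In the SB431542 list 1578 of 1579 such runs held regions of a single width, compared with 14 of 1031 runs in the DMSO TEAD4 list and 128 of 4162 in the SMAD2 list. Rows of the same run were not ranked against each other here, and runs of fewer than 10 rows, which also arise without ties, were not read.

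The reference sequence at the gene's start is shown because the earliest TEAD4 rows of the window lie there. RefSeq (GRCh38.p14, minus strand) gives AMOTL2 2 starts, 970 bp apart. The 250 bases before each start are printed 5′ to 3′, with capitals for matches to the TEAD motif GGAATG, the AP-1 motif TGANTCA and the SMAD motif CAGAC, searched on both strands. The stretches are chr3:134375418-134375667 for the outer start and chr3:134374448-134374697 for the inner start.
AMOTL2 outer start: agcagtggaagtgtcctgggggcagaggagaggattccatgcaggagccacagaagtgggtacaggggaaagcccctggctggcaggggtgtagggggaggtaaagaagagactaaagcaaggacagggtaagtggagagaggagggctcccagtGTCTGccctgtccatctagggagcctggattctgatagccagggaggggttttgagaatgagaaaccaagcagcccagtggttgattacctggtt
AMOTL2 inner start: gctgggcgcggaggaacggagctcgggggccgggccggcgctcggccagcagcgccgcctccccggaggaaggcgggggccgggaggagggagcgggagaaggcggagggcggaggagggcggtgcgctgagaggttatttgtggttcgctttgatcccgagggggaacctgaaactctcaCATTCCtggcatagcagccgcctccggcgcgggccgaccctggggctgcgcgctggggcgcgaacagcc

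The stretches differ in make-up. The inner one is 73.6% G and C with 29 CG pairs, and the outer one is 56.4% G and C with 0. The inner stretch holds 1 TEAD match, the reverse complement CATTCC at 69 to 64 bp before its start, and no match to the other motifs. The outer stretch holds 1 SMAD match, the reverse complement GTCTG at 95 to 91 bp before its start, and no TEAD match. Of 35116 RefSeq stretches of this kind, 11.9% hold GGAATG, 6.57% TGANTCA and 38% CAGAC on either strand, so that a single match of either type found here is not rare. A match is a description of the letters and not a measured site.

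A list of 19 genes was taken for the same search. It held the motins, the kinase genes LATS1 and LATS2, NF2, WWC1, PTPN14 and VGLL4. YAP1, WWTR1 (which encodes TAZ), the TEAD genes and known targets made up the rest. CCN1, TEAD1 and TEAD4 had no stretch and could not be searched. Of the 16 with a stretch in the table, 6 held GGAATG before at least 1 start, against 14.3% of all 27305 genes. CAGAC was held by 7 of the 16, against 42.8% of all genes, and TGANTCA by 2, against 8.06%. Known targets of YAP and TEAD were put in the list on purpose, so no enrichment is read from these counts. The 6 genes with GGAATG were AMOTL2, the targets CCN2, ANKRD1 and NUAK2, the phosphatase gene PTPN14, and YAP1. The other motins, AMOT and AMOTL1, held no GGAATG in these windows. The regions near those genes were not analysed here, since no hg19 annotation was used.

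TEAD4 was called just inside the AMOTL2 start under both treatments, in the earliest row that the window has in each TEAD4 list. The region of SB431542 cells spanned 134093178 to 134093518 (341 bp, row 350 of 262109), and that of DMSO cells 134093151 to 134093599 (449 bp, row 10 of 289380). The SB431542 region lay wholly inside the DMSO region, and their midpoints were 27 bp apart. Counted from the hg19 start of the gene at 134094259, the SB431542 region covers 741 to 1081 bp into the gene and the DMSO region 660 to 1108 bp. In GRCh38 the CATTCC match lies 901 to 906 bp inside the outer start. These distances come from different builds and no position was carried over, so whether the match lies in the called regions was not tested.

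A further TEAD4 region of SB431542 cells lay still closer to the start, at 134093802 to 134094063 (262 bp, row 3577), 196 to 457 bp into the gene. It had no DMSO partner, and its nearest DMSO region was the row 10 region, 203 bp away. On the other side, DMSO cells had a single wide region at 134092101 to 134092749 (649 bp, row 14967), the widest of the window. In SB431542 cells 2 narrower regions overlapped it, at 134092025 to 134092222 (198 bp, row 46795) and 134092606 to 134092744 (139 bp, row 43116). SMAD2 had no region inside the first 12 kb of the gene. Its nearest region to the start was upstream, at 134095551 to 134095749 (199 bp, row 19628 of 420548), 1.29 kb from the start and 1952 bp from the nearest DMSO TEAD4 region.

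**Figure D1:**
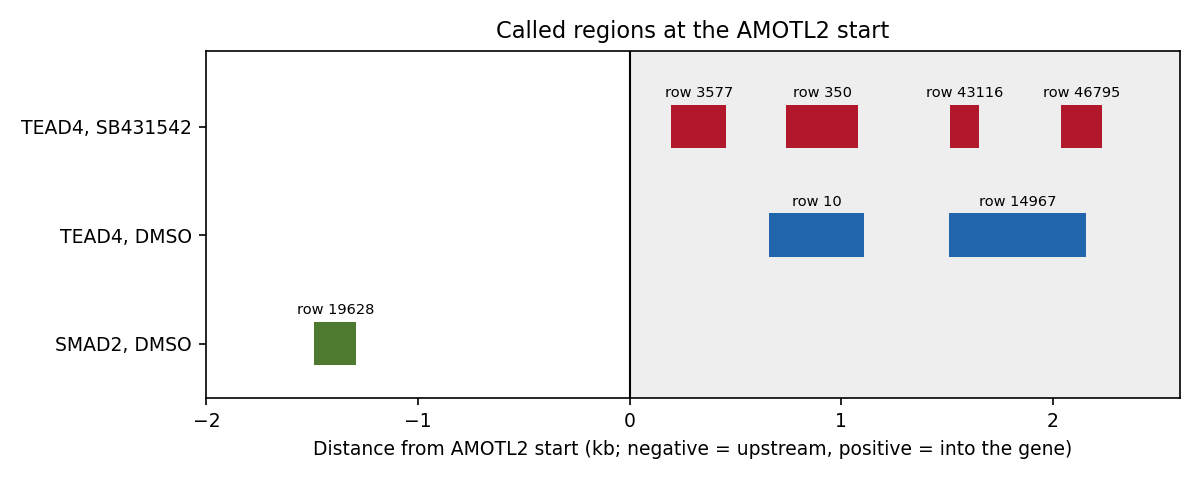
Called regions at the AMOTL2 start, drawn to scale by distance from the hg19 start in kb (positive into the gene, grey), with the row number of each. The row 350 region of SB431542 cells sits inside the row 10 region of DMSO cells, and the SMAD2 region (row 19628) lies upstream, apart from both.

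Deeper in the gene, TEAD4 was called again under both treatments about 11 kb from the start. The SB431542 region there was 134082989 to 134083221 (233 bp, row 1466) and the DMSO region 134082901 to 134083249 (349 bp, row 527), midpoints 30 bp apart. The only SMAD2 region in AMOTL2, at 134082101 to 134082249 (row 201926), lay 652 bp from this DMSO TEAD4 region without overlap. Which exon or intron these positions fall in was not analysed here.

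Past the end of the gene stood 3 more sites called under both treatments, of which all but 1 were in the first 5000 rows of both lists. The nearest of them lay about 48 kb from the start, at 134045809 to 134046092 in SB431542 cells (284 bp, row 1786) and 134045701 to 134046099 in DMSO cells (399 bp, row 198). The farthest, about 67 kb from the start, was at 134027324 to 134027643 in SB431542 cells (320 bp, row 1991) and 134027301 to 134027549 in DMSO cells (249 bp, row 2541). This was the only one of the leading sites at which the SB431542 region was the wider one.

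The site between these, about 62 kb from the start, had an early row in the SB431542 list only. It was 134032216 to 134032494 in SB431542 cells (279 bp, row 1197) and 134032151 to 134032449 in DMSO cells (299 bp, row 21349). The overlap was 234 bp, as close a match as at the leading sites. The DMSO row stood in a run from row 20375 to row 22879, so its rank is known no better than that. Gaps in rank were common when any overlap of at least 1 bp was counted. Of the first 2000 SB431542 rows, 840 had a DMSO partner, and for 338 of these the earliest partner lay past row 20000. Pairs matched as closely as this one were not counted apart. Rows beside long stretches without any region were not left out of these counts.

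Upstream of the gene, on the side of ANAPC13 (a subunit of the anaphase-promoting complex), 1 site was in the first 5000 rows of both lists. It spanned 134182975 to 134183216 in SB431542 cells (242 bp, row 1632) and 134182951 to 134183299 in DMSO cells (349 bp, row 1457, in a run from row 1415 to row 1523). It lay 88.7 kb from the start and 89.35 kb from the row 10 region, too far to join the other 4 sites in a group with gaps of at most 50 kb. The 5 sites together span 156 kb. RYK, which encodes a Wnt receptor, is the next protein-coding gene on the other side of AMOTL2 in RefSeq.

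**Figure D2:**
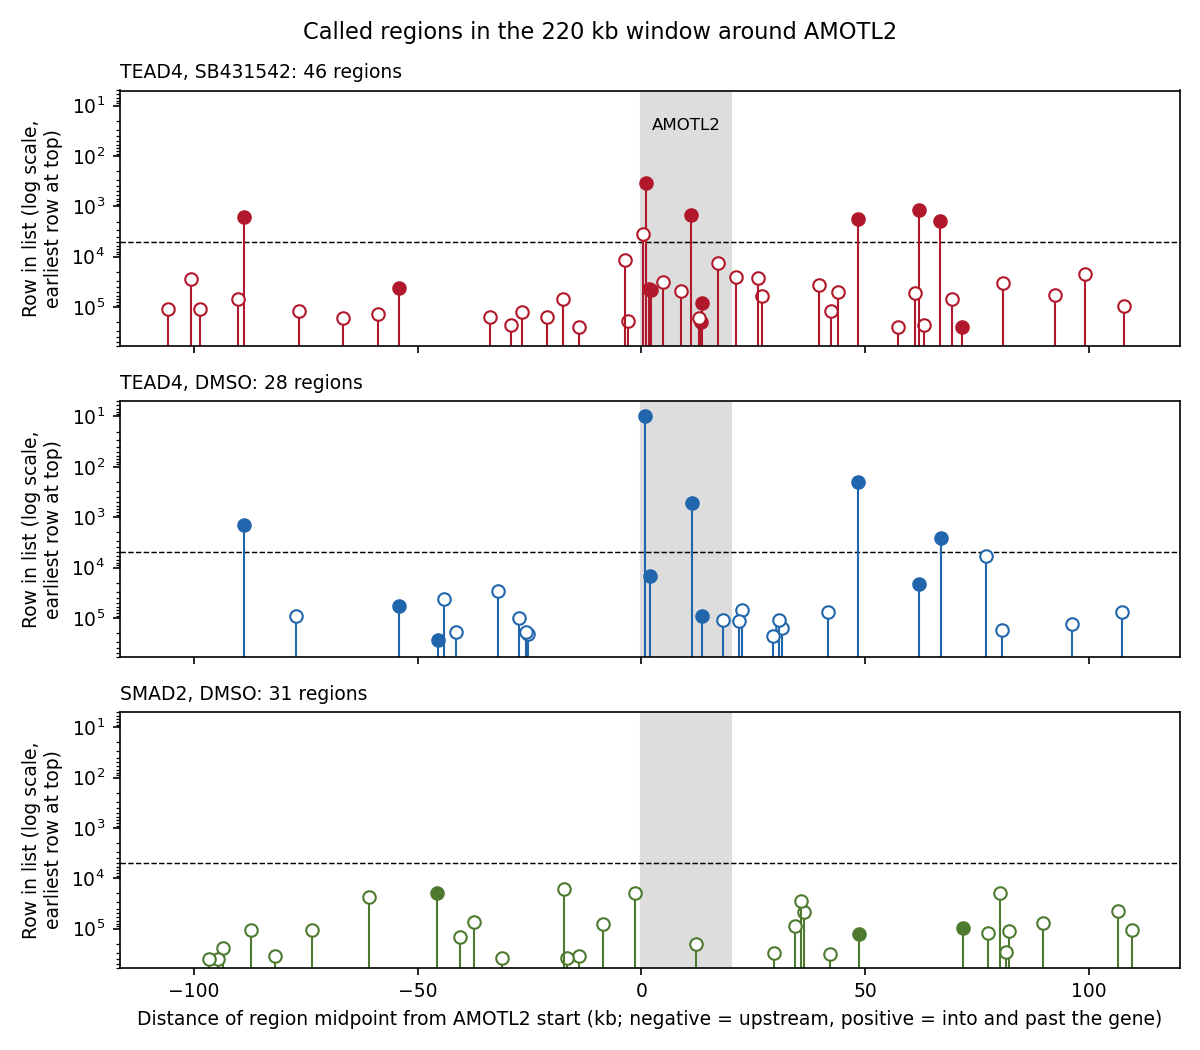
All regions of the window by distance of their midpoint from the AMOTL2 start (kb) and by row in their list (log scale, earliest row at the top). Grey marks AMOTL2, the dashed line row 5000, and filled circles the regions that overlap a region of another list. In the TEAD4 panels 7 regions (SB431542) and 5 regions (DMSO) reach above the line, and in the SMAD2 panel 0 do.

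At these 5 sites the regions of both treatments matched closely in place. The SB431542 region lay wholly inside the DMSO region at 4 of the 5, and the distance between midpoints was 27 to 58.5 bp. With the site 62 kb from the start they made up all 6 pairs of the window in which each region covered at least 50% of the other. Just inside the limit of 5000 rows the last rows of the window were 3577 (SB431542) and 2541 (DMSO), and just outside it the next were 11782 and 5855. The row 5855 region of DMSO cells (134017301 to 134017499) had no SB431542 partner, the nearest being 3726 bp away, and neither had the row 11782 region of SB431542 cells (134097895 to 134098089), 3.64 kb upstream of the start, a DMSO partner. The limit of 5000 itself falls inside a run in both TEAD4 lists, from row 4989 to row 5027 (SB431542) and from row 4912 to row 5419 (DMSO). No region of the window stands in either run.

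The rows at the sites can be set beside those of other shared regions, as a description, since the limit on rows was part of the choice. All of the first 100 DMSO rows had an SB431542 partner, with a median partner row of 712 (quartiles 541 and 1082, earliest 304), and row 10 had its partner in row 350. Among DMSO rows 101 to 1000 with a partner the median partner row was 3969 (quartiles 1269 and 30256), and rows 198 and 527 had theirs in rows 1786 and 1466. Among DMSO rows 1001 to 5000 with a partner the median was 34153 (lower quartile 4574), and rows 1457 and 2541 had theirs in rows 1632 and 1991. In the SB431542 list many early rows lie beside long stretches without any region, and with those removed and the rows renumbered, a step chosen after seeing the data, the row 350 region moved to row 127.

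**Figure D3:**
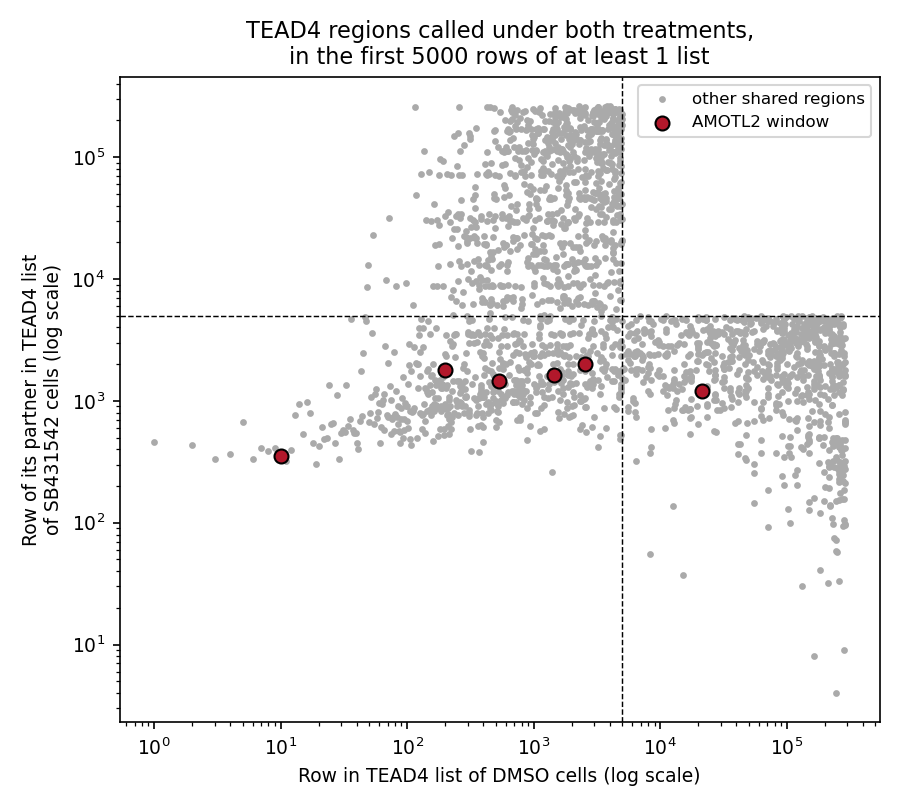
Row of each TEAD4 region of DMSO cells (x, log scale) against the row of its earliest partner in SB431542 cells (y, log scale), for pairs in the first 5000 rows of at least 1 list (dashed lines). The AMOTL2 window supplies 5 points in the lower left field and 1, at DMSO row 21349, to the right of it.

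Over the whole window 11 of 46 TEAD4 regions of SB431542 cells overlapped a DMSO region by at least 1 bp (23.9%, 95% Wilson interval 13.9 to 37.9%), against 6.39% of the whole list. Of the 28 TEAD4 regions of DMSO cells, 9 overlapped an SB431542 region (32.1%, 17.9 to 50.7%), against 5.69% of the whole list. These shares include the sites that chose the locus, and nothing is read from them. The intervals reflect counting error alone, as if regions close to each other were independent. In the first 5000 rows 6 of 7 SB431542 regions (29.1% of such rows in the whole list) and 5 of 5 DMSO regions (29.6%) had a partner. Outside the first 5000 rows, 5 of 39 SB431542 regions had a DMSO partner (12.8%, 5.60 to 26.7%; 5.95% of such rows in the whole list) and 4 of 23 DMSO regions had an SB431542 partner (17.4%, 6.98 to 37.1%; 5.27% of such rows). The first of these intervals includes the share of the whole list and the second lies just above it. The whole-list share is not a like baseline, because it makes no allowance for region density. By midpoints the window held 45 SB431542 regions, against a median of 20 per window of this length. Whether the second share exceeds what that density gives was not tested, and no excess is read from it. Of the 4 DMSO regions, only that of row 21349 had a partner with 50% of both regions covered.

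Those 4 DMSO regions were the wide region near the start (row 14967), the region 62 kb away (row 21349) and 2 with later rows and looser matches. One was inside the gene at 134080651 to 134080899 (row 91532), overlapped by the SB431542 regions at 134080592 to 134080774 (row 82007) and 134080826 to 134080971 (row 194807). The other was upstream at 134148201 to 134148449 (row 58980), which shared 10 bp with the SB431542 region at 134148440 to 134148597 (row 40884). The remaining 35 SB431542 and 19 DMSO regions of the window had no TEAD4 partner.

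Part of the regions lay in AMOTL2 itself. The gene held 11 TEAD4 regions of SB431542 cells, 5.48 per 10 kb (95% Poisson interval 2.74 to 9.81), and the rest of the window 35, 1.75 per 10 kb (1.22 to 2.44). TEAD4 in DMSO cells had 5 regions in the gene, 2.49 per 10 kb (0.81 to 5.81), and 1.15 per 10 kb (0.73 to 1.73) outside it. SMAD2 had 1 region in the gene, 0.50 per 10 kb (0.013 to 2.78), and 1.50 per 10 kb (1.01 to 2.14) outside it. The TEAD4 counts include the leading sites that chose the locus. Without those 5 sites, 9 SB431542 regions were left in the gene, 4.49 per 10 kb (2.05 to 8.51), and 1.60 per 10 kb (1.10 to 2.26) outside it, and for TEAD4 in DMSO cells 3 were left in the gene, 1.50 per 10 kb (0.31 to 4.37), and 1.0 per 10 kb (0.61 to 1.55) outside it. These intervals for gene and surroundings overlapped in both TEAD4 lists, as they did for SMAD2. Gene and surroundings were not compared directly, so neither a difference in density nor its absence is read from them. Densities in other genes were not analysed here. Upstream, the first TEAD4 region was 2.91 kb from the start in SB431542 cells and 25.2 kb from it in DMSO cells.

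To set the window beside the genome, 23 chromosomes (Y left out) were divided into steps of 220 kb from their first base, which makes the AMOTL2 window 1 of 12962 windows with a region. By midpoints it held 45 TEAD4 regions of SB431542 cells, against a median of 20 per window, and 43 windows (0.332%) held as many or more. It held 28 TEAD4 regions of DMSO cells, against a median of 22, and 2710 windows (20.9%) held as many or more. Its 31 SMAD2 regions were fewer than the median of 33. The TEAD4 counts include the 5 leading sites that chose the locus. Without these sites 23 DMSO regions were left, and 9 SB431542 regions in the gene with 32 outside it. These counts are of regions that touch the window and not of midpoints. With the leading sites counted, the window thus stood high in the SB431542 list, and for SMAD2 it stood near the middle. Where it would stand in the SB431542 list without those sites was not ranked. Its place above the median in the DMSO TEAD4 list rests largely on the leading sites, and nothing is read from it. Whether the different making of the SB431542 list bears on its count was not tested.

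**Figure D4:**
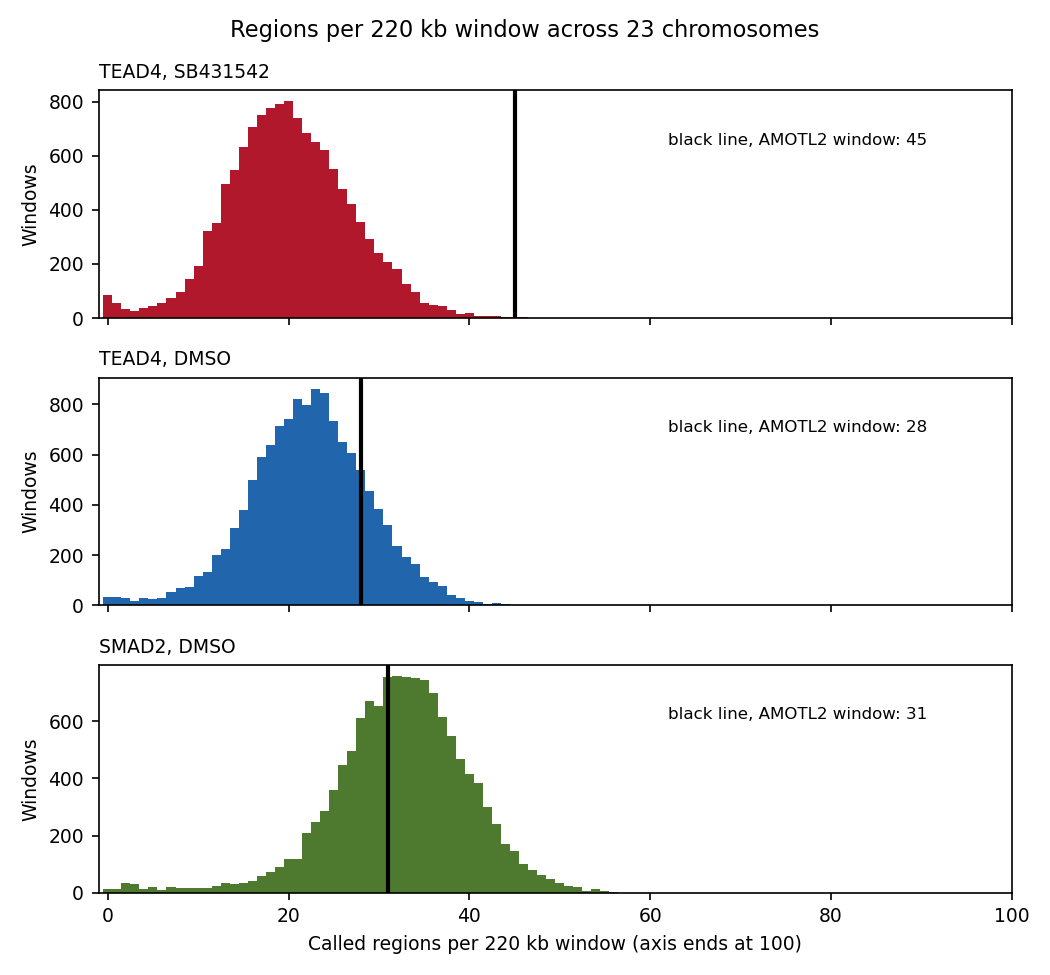
Number of 220 kb windows (y) by the number of regions they hold (x, shown up to 100) in each list, with the AMOTL2 window as a black line. The line is at 45 in the far right of the SB431542 TEAD4 distribution, at 28 right of the middle for TEAD4 in DMSO cells, and at 31 left of the middle for SMAD2.

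Among the 12962 windows, the AMOTL2 window alone held 5 TEAD4 regions of the first 5000 rows of both lists. There were 2 windows with 3 such regions, 28 with 2, 546 with 1 and 12385 with none. Over the whole genome 613 regions, or 0.212% of the DMSO TEAD4 list, met this rule, and the window was picked for holding several of them. Of DMSO TEAD4 regions with an SB431542 partner but outside that rule, the window held 4. At least that many were held by 580 of the windows (4.47%). Windows were not matched for region density, so nothing is read from this count.

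Of the groups of at least 3 such regions with gaps of at most 50 kb, the one at AMOTL2 was the longest, 66.3 kb with 4 regions, against 25 kb with 3 on chromosome 16 (71043401 to 71068399) and 15.55 kb with 3 on chromosome 6 (37094051 to 37109599). Rows in the AMOTL2 group spanned 350 to 1991 (SB431542) and 10 to 2541 (DMSO). On chromosome 16 they spanned 1011 to 1799 and 476 to 855, and on chromosome 6 they spanned 982 to 1204 and 16 to 405. In 220 kb centred on each group, DMSO TEAD4 regions with an SB431542 partner numbered 8 of 29 at AMOTL2, 8 of 33 on chromosome 16 and 8 of 28 on chromosome 6. These counts include the regions that defined each group. Without those regions they were 4 of 25, 5 of 30 and 5 of 25. In the DMSO list with regions of that rule left out the share was 5.49%. That share makes no allowance for the number of SB431542 regions around each group. SB431542 TEAD4 regions numbered 41, 94 and 25, and SMAD2 regions numbered 32, 32 and 26.

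SMAD2, which had no part in the choice of the locus, had 0 regions of the first 5000 rows of its list in the window. That is the usual value, as 8889 of the 12962 windows of this length held none. Its 3 earliest rows were 16360 (134111351 to 134111599, 249 bp, 17.1 kb upstream of the start), 19628 (the region just upstream of the start) and 19629 (134014051 to 134014349, 299 bp, about 80 kb past the start). Rows 19628 and 19629 stand in 1 run, from row 19600 to row 19666, and are not ranked against each other.

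Overlap of SMAD2 with TEAD4 at the locus rested on 2 regions in each comparison, of which 1 was at a leading TEAD4 site that chose the locus. In DMSO cells 2 of 31 SMAD2 regions overlapped a TEAD4 region (6.45%, 1.79 to 20.7%), against 5.29% of the whole list, and 2 of 28 TEAD4 regions overlapped SMAD2 (7.14%, 1.98 to 22.7%), against 7.67%. With TEAD4 in SB431542 cells, 2 of 31 SMAD2 regions overlapped (6.45%, 1.79 to 20.7%; 3.39% of the whole list), as did 2 of 46 TEAD4 regions (4.35%, 1.20 to 14.5%; 5.46% of the whole list). All 4 intervals include the share of the whole list, and with so few regions a difference of several percentage points would not be detectable. Early TEAD4 rows overlapped SMAD2 more often in the whole lists, with 11.7% of the first 5000 DMSO rows and 6.2% of the first 5000 SB431542 rows.

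At the locus 1 of 28 DMSO TEAD4 regions was called in all 3 lists (3.57%, 0.63 to 17.7%), against 0.516% of the whole list. It is one of the leading sites that chose the locus, and among the other 23 DMSO regions 0 were called in all 3. At the leading TEAD4 site 48 kb from the start, the SMAD2 region 134045701 to 134045849 (149 bp, row 128852) lay inside the DMSO TEAD4 region, starting at the same base. It shared 41 bp with the SB431542 region. SMAD2 thus covered the edge of the TEAD4 region that points away from AMOTL2, its midpoint 125 bp from that of the DMSO region. The other overlap in DMSO cells joined an early SMAD2 row with a late TEAD4 row, 134139701 to 134139999 (SMAD2, row 19684) and 134139701 to 134139849 (TEAD4, row 273802), 45.4 kb upstream. The other SB431542 overlap was of 27 bp, between TEAD4 at 134022523 to 134022630 (row 246243) and SMAD2 at 134022351 to 134022549 (row 95793). At the remaining 4 leading TEAD4 sites the nearest SMAD2 region was 652 to 4752 bp from the DMSO region.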

How the data were processed

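The authors deposited, for each of 3 libraries, a list of called regions with 3 columns (chromosome, start and end in bp) and no header, score or count. Positions are on hg19, per the submitters' processing notes. For caller, threshold and control library, nothing is given in the sources used here. The factor and treatment named by a list matched 1 sample title. Starts were raised by 1 bp, so that widths are end minus start of the deposited list. The window and the position of AMOTL2 were given with the choice of the locus, and strand, starts, sequence and gene neighbours came from RefSeq on GRCh38.p14, without carrying positions between builds.

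Regions were called shared at 1 bp of overlap. Shares have 95% Wilson intervals and densities exact Poisson intervals, both for counting error only. Overlap counting was tested on simulated lists. Positions are given for regions in the first 5000 rows, for regions that overlap another list, for those nearest the start and for the 3 earliest rows per list, and for a few more chosen after their values were seen. Row runs, the 220 kb steps, densities without the leading sites and the renumbering without regions beside empty stretches (31 stretches of at least 1 Mb, regions within 500 kb) were also chosen after seeing the data. The locus, gene list and motifs were chosen with earlier results of these data known. Scripts ran in Python 3.11.15 with NumPy 2.4.6 and SciPy 1.17.1, and plots were drawn with matplotlib 3.10.9.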

Additional observations from a re-analysis of the deposited data

How the results depend on the processing

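Of 38 alternative values, 26 stayed within the interval of the reported value or, for counts, within 1.5 times of it. This tally is a lenient one. Reading region ends as inclusive changed none of the shares. With midpoints within 100 bp, the share of SMAD2 regions overlapping DMSO TEAD4 went from 6.45% to 3.23% and still lay within its wide interval. With 50% of both regions required, the share of SB431542 TEAD4 regions with a DMSO partner was 13.0%, and both shares between SMAD2 and DMSO TEAD4 were 0%. In the first 10% of rows of each list, the shares were 54.5% of SB431542 TEAD4 regions in DMSO, 66.7% of DMSO TEAD4 regions in SB431542, and 0% for SMAD2 in TEAD4 and for TEAD4 in SMAD2. The densities then fell by construction to 5.0, 4.09 and 2.73 regions per 100 kb for TEAD4 in SB431542, TEAD4 in DMSO and SMAD2, against 20.9, 12.7 and 14.1 with all rows. For SMAD2 the first 50% of rows gave 9.55 per 100 kb. The count of 5 sites in the first 5000 rows of both lists was 1 in the first 1000 rows. It remained 5 in the first 10000 rows, with 50% of both regions and without regions beside empty stretches. The count was also 5 with the limit moved to the end of its run in each list. No paired analysis was possible because the groups hold a single library each, nor could a library be left out. Depth is unknown.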
